A study of Mus musculus with 3 samples.

Results

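The Notch receptors Notch1 to Notch4, the ligands Dll4, Jag1 and Jag2, and the Notch targets Hes1, Hes5 and Nrarp were followed in mouse embryoid bodies without Hopx. The 10 genes were taken as every non-control probe of the arrays whose accession belongs to one of them, which gave 12 of 39429 probes, and all 10 genes were among the 19815 tested. Each of 3 arrays carried RNA of a Hopx-/- culture (null) and of a Hopx+/- culture (heterozygous), both at day 8 of cardiac differentiation, with 1 culture per dye. The stem cells were derived from blastocysts of either genotype, kept on feeder cells, aggregated in hanging drops and plated in cardiac medium with VEGF, bFGF and FGF10, so that both groups had the same treatment. The heterozygous culture carries 1 working copy of Hopx, and no wild type was analysed here. The labels do not say how many stem cell lines were used, so a genotype and a line cannot be told apart, and p-values measure only the spread between these samples.

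Notch signalling runs between touching cells. A ligand of the Delta or Jagged family on one cell binds a Notch receptor on the next, the receptor is cut by ADAM proteases and then by gamma-secretase, and the freed intracellular domain joins the DNA-binding protein Rbpj to switch on genes such as those of the Hes and Hey families. In the embryo the pathway is known for its parts in arterial endothelium and endocardium, in the upkeep of neural progenitors and in the segmentation of presomitic mesoderm. Embryoid bodies hold cells of several of these kinds.

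The arrays were read with 1 of the 3 turned. By the labels the null culture carried Cy5 throughout, yet replicate 3 correlated at r = -0.90 with both other arrays across 24575 probes, while replicates 1 and 2 correlated at r = 0.94, across probes that are not independent replicates. The authors' deposited table of values runs opposite to the scanner ratios on replicate 3 only, with a slope of -0.94 over bright probes against 0.94 for both others. The labels and the scanner values thus disagree on the direction of replicate 3, and with it as labelled 0 of the 10 genes were called. The direction of the authors' table was taken, and all signed values here are log2 ratios of null over heterozygous with replicate 3 turned. Hopx, the deleted gene, had normalized log2 intensities of 7.57, 7.63 and 7.14 in the null cultures of replicates 1, 2 and 3, against 10.55, 10.60 and 10.59 in the heterozygous ones, a log2 ratio of -3.13 (SE 0.11). Its array ratios were -2.98, -2.97 and -3.45 after turning, so as labelled replicate 3 would have more Hopx signal in the null culture. No source used here says where its probes lie relative to the deleted part. Of 11 markers of feeder fibroblasts, 8 rose and 1 fell in null cultures, with a median log2 ratio of 0.61 and a summed normalized intensity of 53851 to 77304, against 23487 to 39434 in heterozygous cultures. Col1a1 on replicate 1 and Postn on replicate 2 were left out as outlier spots, so the sums of the arrays hold unlike sets of genes. The part of feeder cells in the results was not tested. Of the 43020 non-control spots, 61.9% to 72.9% were well above background in a given culture, and with 3 arrays the precision is limited by their number.

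Of the 10 genes, 3 rose in null cultures (Notch4, Hes5 and Nrarp), 2 fell (Notch1 and Jag2) and 5 did not pass (Notch2, Notch3, Dll4, Jag1 and Hes1), at an adjusted p under 0.05 by limma over all probes. That is 5 of 10 against 60.3% of all genes tested (30.2% higher, 30.1% lower), so a call was no more frequent here than on the array as a whole. The median log2 ratio was 0.08 over the 10 genes, against 0.0034 over all genes, and the median size without sign was 0.31 against 0.33. Only Notch4 among the 10 passed with a change of at least 2-fold, as 10.9% of all genes did. With each array centred on its median and no loess, where the median of all genes stood at 0.23, 5 of the 10 were called higher and 2 lower.

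**Figure D1:**
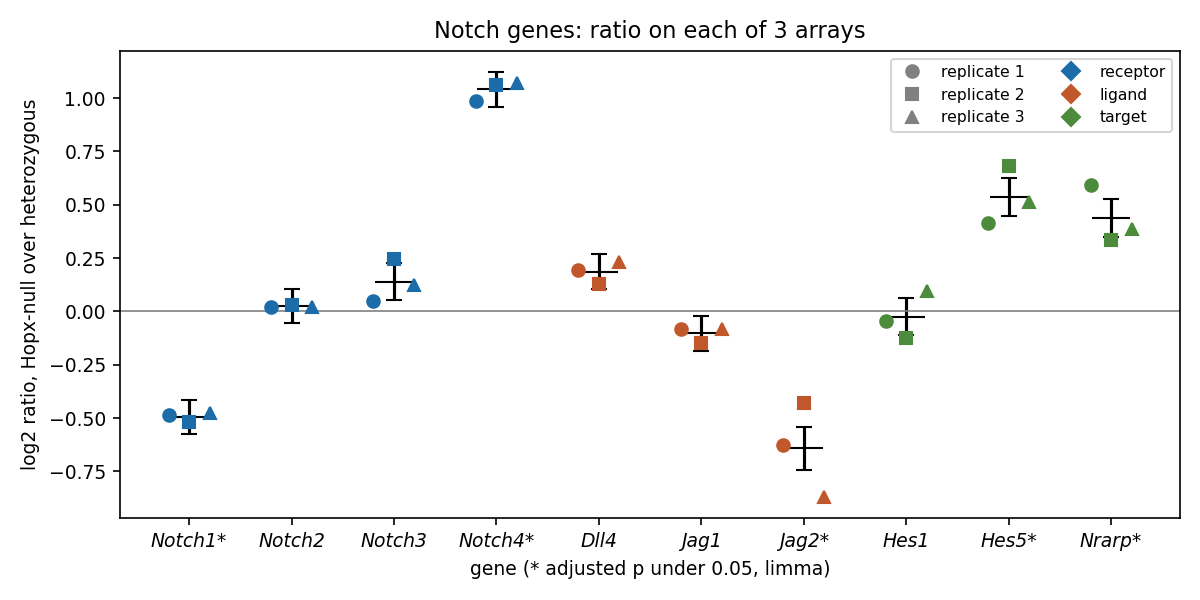
Log2 ratio of Hopx-null over heterozygous embryoid bodies (vertical axis) for the 10 Notch genes (horizontal axis). Symbols are the 3 arrays, the horizontal bar is their mean and the whiskers the moderated SE. Notch4 lies near 1 on every array, Hes5 and Nrarp lie above 0, and Notch1 and Jag2 lie below 0 on all 3.

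Among the receptors, Notch4, which is found mainly in endothelium, was higher in null cultures. It had log2 intensities of 9.06, 9.05 and 8.86 in null cultures of replicates 1, 2 and 3, against 8.07, 7.99 and 7.79 in heterozygous cultures. Every null culture was above every heterozygous one. The array ratios of 0.99, 1.06 and 1.07 lay close together, and their mean of 1.04 (SE 0.08, n = 3 arrays, adjusted p = 1.3e-05 by limma) is a 2.06-fold higher signal in null cultures. The ratio stayed called in each of 14 other settings except with replicate 3 as labelled (0.33, adjusted p = 1.00), over which its adjusted p ran between 2.4e-07 and 1.00.

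Notch1, the receptor of arterial endothelium and endocardium and of many progenitors, went the other way. Its log2 intensities were 6.43, 6.36 and 6.28 in null cultures, against 6.92, 6.88 and 6.76 in heterozygous cultures. The groups did not overlap, and the array ratios of -0.49, -0.52 and -0.48 were nearly equal, with a mean of -0.49 (SE 0.08, adjusted p = 0.00084 by limma). The probe was dim, so the size of this change is not firm. Before any correction the spot read 68, 62 and 64.5 scanner units in null cultures over local backgrounds of 42, 41 and 34, against 79, 79 and 89 in heterozygous cultures over backgrounds of 34, 32 and 44. With the scanner software's processed signals, which do not carry the offset of 50 added here, the log2 ratio was -1.53, and its adjusted p over all settings ran between 0.00019 and 1.00. On the authors' deposited values the log2 ratio of this probe was -0.29, only just called (adjusted p = 0.048 by limma). The other Notch1 probe was not well above background in either culture of any array and was not tested. Its array ratios were 0.13, 0.02 and -0.04.

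Notch2, a receptor expressed in many tissues, had log2 intensities of 9.87, 10.30 and 10.43 in null cultures, against 9.85, 10.27 and 10.41 in heterozygous cultures. The groups overlapped, and the level varied more between arrays than between the 2 cultures of an array. Its log2 ratio was 0.02 (SE 0.08, adjusted p = 0.82 by limma), with a 95% interval between -0.16 and 0.21. Its dimmer probe, well above background in 1 null and 2 heterozygous cultures, was not tested.

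Notch3, the receptor of vascular smooth muscle and pericytes, had log2 intensities of 11.97, 12.002 and 11.91 in null cultures, against 11.92, 11.76 and 11.79 in heterozygous cultures. The groups overlapped at replicate 1 of the heterozygous cultures. Its array ratios of 0.05, 0.24 and 0.12 were all above 0, and their mean of 0.14 did not pass (SE 0.08, adjusted p = 0.19 by limma, 95% interval -0.055 to 0.33). Of 11 mural and smooth muscle markers, Myh11 and Kcnj8 were too dim to be tested. Of the 9 tested, 2 rose and 3 fell, with a median of 0.07. Abcc9, which rose, was well above background in all 3 null cultures but in 1 heterozygous one. With no filter on dim probes 2 of the 11 rose and 3 fell, with a median of 0.12. Of the 8 well above background in both channels on all arrays, 1 rose and 3 fell. Both Notch2 and Notch3 were called higher with median centring and no loess (0.38 and 0.56), a setting that raised the median of all genes as well.

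The difference between the ratios of Notch4 and Notch1 was 1.47, 1.58 and 1.55 on the 3 arrays (mean 1.53, SD 0.05). Its size is not firm, because it rests on the dim Notch1 probe, and with processed signals the ratios were 1.27 for Notch4 and -1.53 for Notch1. An exact sign permutation over 3 arrays cannot give a two-sided p below 0.25, so such differences between genes are given without a test.

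**Figure D2:**
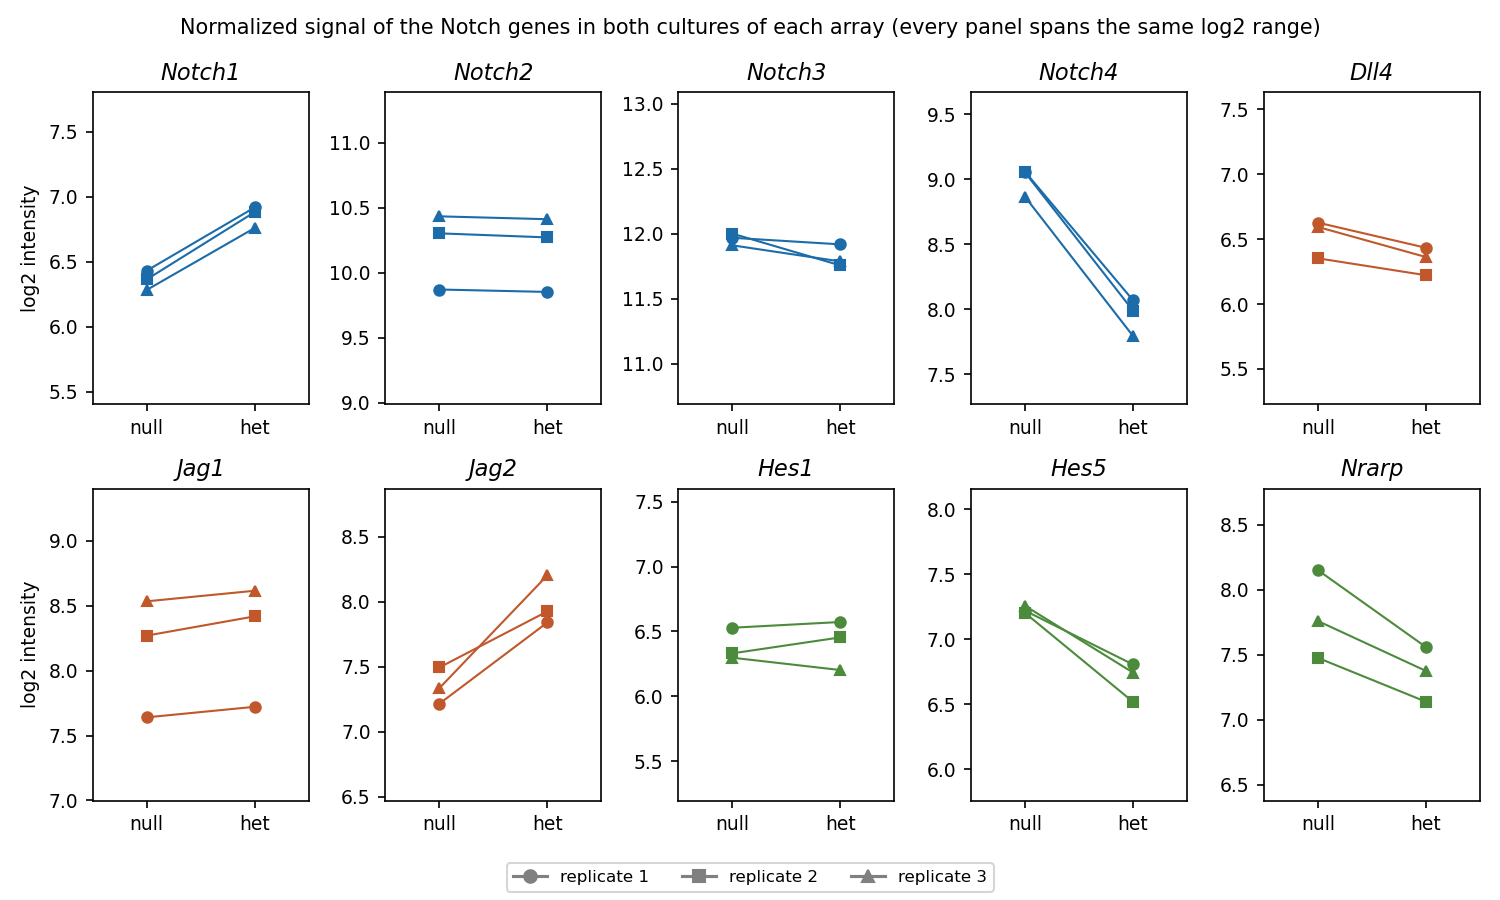
Normalized log2 intensity (vertical axis) of each of the 10 genes in the null and the heterozygous culture of each array, joined by a line per array. Every panel spans the same log2 range, levels of different panels cannot be compared, and the lines of Notch4, Hes5 and Nrarp slope down from null to het while those of Notch1 and Jag2 slope up.

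Among the ligands, Jag2 alone passed. Jag2, a Jagged ligand known from limb, thymus and craniofacial development, had log2 intensities of 7.22, 7.49 and 7.33 in null cultures, against 7.84, 7.92 and 8.20 in heterozygous cultures. All null cultures were below all heterozygous ones. The array ratios were -0.62, -0.43 and -0.87, with replicate 3 lowest, and their mean was -0.64 (SE 0.10, adjusted p = 0.00068 by limma), a 1.56-fold lower signal in null cultures. An ordinary t statistic per probe, which takes the spread of these 3 values alone, did not call it (adjusted p = 0.088, with a range of 1.3e-05 to 1.00 over all settings).

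Jag1, the Jagged ligand of heart outflow tract and vessel wall, had log2 intensities of 7.64, 8.27 and 8.53 in null cultures, against 7.72, 8.42 and 8.61 in heterozygous cultures. The level varied between arrays by far more than between genotypes. The mean ratio of -0.10 did not pass (SE 0.08, adjusted p = 0.30 by limma, 95% interval -0.29 to 0.08). The difference between the ratios of Jag2 and Jag1 was -0.54, -0.28 and -0.79 on the 3 arrays.

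Dll4, the Delta ligand of arterial and sprouting endothelium, had log2 intensities of 6.63, 6.35 and 6.59 in null cultures, against 6.43, 6.22 and 6.36 in heterozygous cultures. The groups overlapped, though within each array the null culture was the higher. The array ratios of 0.19, 0.13 and 0.23 had a mean of 0.19, which did not pass (SE 0.08, adjusted p = 0.080 by limma, 95% interval -0.0017 to 0.37). The probe was dim, with spots of 81, 61 and 85 scanner units in null cultures over backgrounds of 42, 41 and 34, against 49, 43 and 67 in heterozygous cultures over 32, 36 and 48.

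Notch4 and Dll4, both genes of endothelium, were thus unequal in their ratios, by 0.79, 0.93 and 0.84 on the 3 arrays. Of 18 endothelial markers, all measured, 13 rose and 2 fell, with a median log2 ratio of 0.49. Cdh5, the endothelial cadherin, rose by 1.22 (SE 0.11) and Kdr, a Vegf receptor, by 1.19 (SE 0.11), while Sox17, an endoderm and arterial endothelial factor, fell by 1.78 (SE 0.08) and Flt1, another Vegf receptor, by 0.80 (SE 0.10), all 4 named here after their values were seen. Summed over the list, the normalized intensity was 49909 to 52483 in null cultures, against 43385 to 46903 in heterozygous cultures. Of 8 markers of arterial endothelium, 3 rose and 1 fell, with a median of 0.07, and their sum was 19018 to 20701 in null cultures, against 20213 to 26024 in heterozygous cultures. Most of the arterial sum came from Unc5b, with a mean log2 intensity of 13.85 in null and 13.97 in heterozygous cultures. Unc5b did not pass (log2 ratio -0.12, adjusted p = 0.33 by limma). The 1 that fell was Sox17, which is also in the endothelial list, so the arterial sum gives no direction for its list. Of 5 endocardial markers, 2 rose and 2 fell, and their sum was 4285 to 4890 in null cultures, against 8528 to 9706 in heterozygous cultures. Most of the endocardial sum came from Gata4, with a mean log2 intensity of 11.50 in null and 13.02 in heterozygous cultures. Gata4 stood at -1.52 (SE 0.10) and Npr3 at -0.62 (SE 0.09), but Tal1 at 1.97 (SE 0.08) and Emcn at 1.08 (SE 0.09). The lower endocardial sum thus reflects Gata4 and gives no direction for the list. What part the number of endothelial or endocardial cells had in the ratios of Notch4, Notch1 and Dll4 was not tested, and in bulk RNA more cells of a type and more RNA per cell cannot be told apart.

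Among the targets, Hes5 and Nrarp rose and Hes1 did not pass. Hes5, a repressor of neuronal differentiation in neural progenitors, had log2 intensities of 7.22, 7.20 and 7.26 in null cultures, against 6.81, 6.52 and 6.74 in heterozygous cultures. The groups did not overlap, and the null values were nearly equal. The array ratios of 0.41, 0.68 and 0.51 had a mean of 0.54 (SE 0.09, adjusted p = 0.00091 by limma), and the log2 ratio was 1.17 with processed signals. In heterozygous cultures the spot was dim, at 63.5, 55.5 and 83 scanner units over backgrounds of 30, 33 and 41. The size of this change is therefore not firm. In the authors' deposited table Hes5 stood at 0.16, 0.24 and 0.31 on the 3 arrays, and limma on those values did not call it (adjusted p = 0.094). The ordinary t statistic also lost it (adjusted p = 0.067), and over all settings its adjusted p ran from 0.00019 to 1.00.

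Most listed markers of neural progenitors rose, as did Hes5. Of 13 listed besides Hes5 itself, 3 (Pax6, Pou3f2 and Pou3f3) were too dim to be tested, and Olig1 and Olig2 were well above background in all 3 null cultures but in 2 and 0 of the heterozygous ones. With no filter on dim probes 9 of the 13 rose and 0 fell, with a median log2 ratio of 1.18, against 37.0% of all genes called in either direction under that setting. The summed normalized intensity of the 10 tested was 18003 to 21803 in null cultures, against 4327 to 5174 in heterozygous cultures. Of 10 neuronal markers, 3 (Neurog1, Neurog2 and Neurod1) were too dim to be tested. Map2 was well above background in all 3 null cultures but in 1 heterozygous one. With no filter on dim probes 5 of the 10 rose and 0 fell, with a median log2 ratio of 0.23. The sum of the 7 tested, Map2 among them, was 2392 to 2740 in null cultures, against 879.0 to 1077 in heterozygous cultures. The part of these cells in the ratio of Hes5 was not tested.

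Nrarp, a small ankyrin repeat protein that is induced by Notch and lowers it in turn, had log2 intensities of 8.15, 7.48 and 7.76 in null cultures, against 7.56, 7.14 and 7.38 in heterozygous cultures. The groups overlapped across arrays, since the heterozygous culture of replicate 1 was above the null culture of replicate 2, but within each array the null culture was the higher. The array ratios were 0.59, 0.34 and 0.38, with a mean of 0.44 (SE 0.09, adjusted p = 0.0028 by limma). Its call was lost in the authors' deposited table (0.30, adjusted p = 0.056), with the ordinary t statistic (adjusted p = 0.080) and with the channels taken as separate samples without the array as a block (adjusted p = 0.11), within a range of 0.00097 to 1.00 over all settings.

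Hes1, the repressor by which many tissues answer Notch, was dim. Its spot read 69.5, 61 and 57 scanner units in null cultures over backgrounds of 37, 42 and 33, against 54.5, 50 and 57.5 in heterozygous cultures over backgrounds of 30, 31 and 46. It was well above background in all 3 null cultures and in 2 of 3 heterozygous ones. The array ratios of -0.04, -0.12 and 0.09 differed in sign, the only case among the 10, while 75.4% of all genes had 1 sign on all 3 arrays. Their mean of -0.02 did not pass (SE 0.09, adjusted p = 0.83 by limma, 95% interval -0.22 to 0.17).

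Rbpj binds DNA at sites with the core TGGGAA, or TTCCCA on the other strand, and a target whose promoter holds such sites can be read beside its ratio. RefSeq promoters (GRCm38.p6) were found for 9 of the 10 genes, and the 250 bases before the start were searched on both strands. The gene without one was Hes1, so it was not searched, and whether it holds such sites is not known from this search. Of all 32851 promoters of that length, 21.6% held at least 1 core and 2.77% at least 2. Of the 9 genes, only Hes5 held any, with 2 cores in opposite orientation, between 226 and 221 and between 82 and 77 bases before the start. Both are also matches of the longer GTGGGAA, which 5.42% of all promoters held at least once and 0.161% at least 2 times. The promoters of the 3 genes that rose are shown, 5′ to 3′ along the strand of the gene, with the cores in capitals.
Hes5 (chr4:154960673-154960922, plus strand): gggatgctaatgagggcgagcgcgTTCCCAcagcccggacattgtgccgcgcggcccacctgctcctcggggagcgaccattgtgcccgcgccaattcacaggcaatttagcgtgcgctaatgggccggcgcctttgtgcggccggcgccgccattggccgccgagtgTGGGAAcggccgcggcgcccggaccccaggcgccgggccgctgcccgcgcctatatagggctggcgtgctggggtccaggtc
Nrarp (chr2:25180508-25180757, plus strand): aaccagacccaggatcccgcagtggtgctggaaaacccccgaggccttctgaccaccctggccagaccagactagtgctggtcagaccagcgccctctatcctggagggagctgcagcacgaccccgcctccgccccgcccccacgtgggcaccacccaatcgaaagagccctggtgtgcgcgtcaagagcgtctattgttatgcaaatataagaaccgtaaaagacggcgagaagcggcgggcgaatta
Notch4 (chr17:34564045-34564294, plus strand): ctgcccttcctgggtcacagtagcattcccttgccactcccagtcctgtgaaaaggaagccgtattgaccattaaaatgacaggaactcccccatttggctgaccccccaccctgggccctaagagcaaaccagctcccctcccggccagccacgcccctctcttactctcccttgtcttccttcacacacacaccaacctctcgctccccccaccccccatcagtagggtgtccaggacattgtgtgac
The Nrarp and Notch4 windows have no capitals because these letters do not occur in them, and sites farther from the start were not searched. A match is a description of the letters and no measure of binding.

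The rest of the pathway gave 59 further genes, grouped by role, of which 55 were tested. Of these, 18 rose, 18 fell and 19 did not pass, or 65.5% called, near the share over all genes, with a median log2 ratio of -0.0030. With median centring and no loess 28 were called higher and 4 lower, so the balance of directions depends on the scaling.

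**Figure D3:**
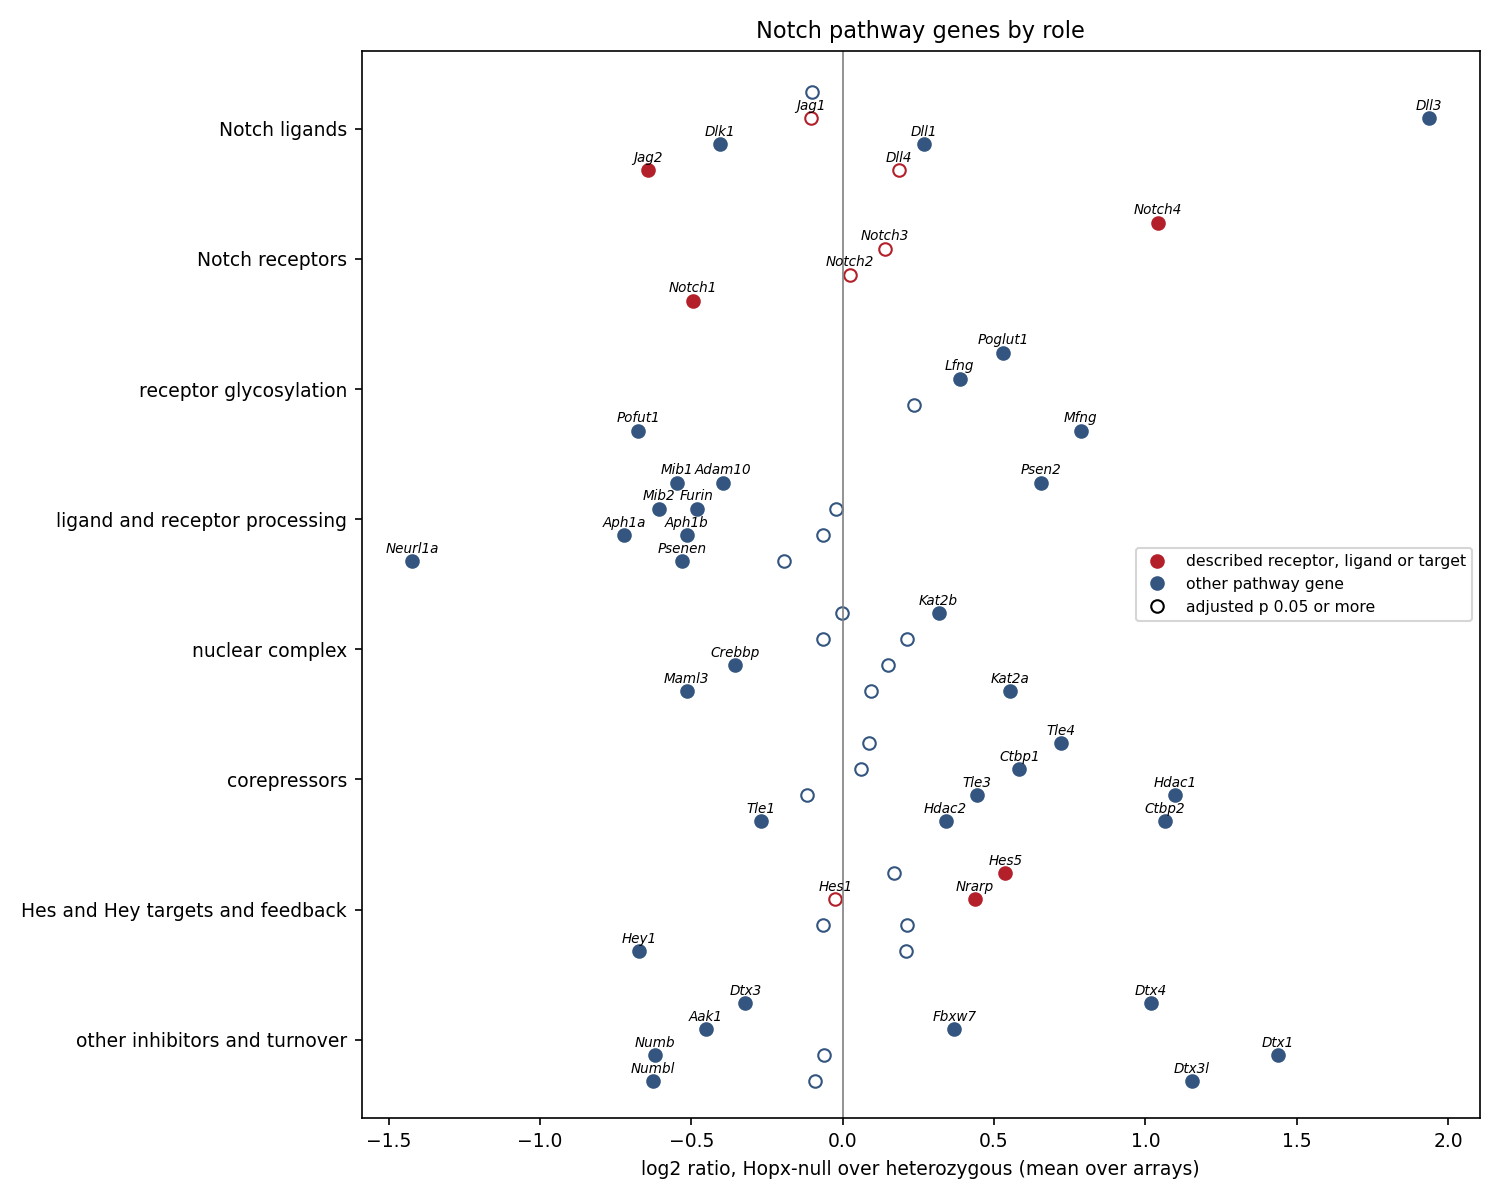
Log2 ratio of null over heterozygous cultures (horizontal axis, mean over arrays) of the Notch pathway genes tested, in rows by role. Vertical offsets within a row only part the labels, filled points passed at adjusted p under 0.05, and red marks the 10 receptors, ligands and targets. Dll3 lies farthest right at 1.94 and Neurl1a farthest left at -1.42.

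Of the 4 other ligands tested, 2 rose and 1 fell. Dll3, a Delta ligand of presomitic mesoderm that acts within the cell, had log2 intensities of 10.31, 10.43 and 10.57 in null cultures, against 8.44, 8.38 and 8.68 in heterozygous cultures. Its log2 ratio of 1.94 (SE 0.08, adjusted p = 7.3e-07 by limma) was larger in size than that of any of the 10 genes, and its other probe stood at 2.04. Of 10 presomitic mesoderm genes, a list that also holds Dll1, Dll3, Hes7 and Lfng, 7 rose and 0 fell with no filter on dim probes. Of the 9 that passed the filter, 4 were not well above background in every heterozygous culture, and the summed normalized intensity of the 9 was 3699 to 4545 in null cultures, against 1479 to 1716 in heterozygous cultures. That sum includes Dll3 itself and those 4 genes, so it is no separate measure beside the ratio of Dll3. The part of such cells in the ratio of Dll3 was not tested. Dll1, the ligand of somite and neural tissue, stood at 0.27 (adjusted p = 0.044), and this call was lost without any one of the replicates (adjusted p = 0.058, 0.061 and 0.20 without replicates 1, 2 and 3). Dlk1, an imprinted Delta-like protein, fell by 0.41 (SE 0.09) by a probe saturated in 1 null culture and by 0.33 (SE 0.09) by its other probe, but the brighter one stood at 0.02 with median centring and no loess.

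Of 5 genes that put sugars on the receptors, 3 rose and 1 fell. Mfng, a Fringe enzyme that shifts receptors towards Delta ligands, rose by 0.79 (SE 0.11), and Poglut1, which adds glucose to the receptor repeats, by 0.53 (SE 0.08). Pofut1, which adds the fucose that Fringe enzymes extend, fell by 0.67 (SE 0.09), while its dimmer probe stood at 9.9e-05.

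Of 12 genes of ligand and receptor processing, 8 fell and 1 rose, against 30.1% lower and 30.2% higher over all genes, with a median log2 ratio of -0.50. The ordinary t statistic left 3 lower and 1 higher, and 2 fell and 2 rose with median centring and no loess. Neurl1a, a ubiquitin ligase related to the fly protein that takes up Delta, had log2 intensities of 10.84, 10.78 and 10.47 in null cultures, against 12.43, 12.03 and 11.89 in heterozygous cultures. It fell by 1.42 (SE 0.09, adjusted p = 4.8e-06 by limma), and its other probe stood at -1.45. Aph1a, a gamma-secretase subunit, fell by 0.72 (SE 0.08), and Psen2, a catalytic subunit of the same protease, rose by 0.65 (SE 0.08).

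In the nuclear complex 2 of 9 rose, 2 fell and 5 did not pass. Rbpj itself, named after its values were seen, stood at -0.0030 (SE 0.08, adjusted p = 0.98), but its dimmer probe stood at -0.53 (adjusted p = 0.00091), so its 2 probes disagree. The acetyltransferases Kat2a and Kat2b rose by 0.55 (SE 0.11) and 0.32 (SE 0.08). The acetyltransferase Crebbp fell by 0.36 (SE 0.09) by its brightest probe, and its other probe was called in the opposite direction at 0.40.

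Of 10 corepressors, 6 rose and 1 fell, or 70% called against 60.3% of all genes, and the ordinary t statistic called 0. The histone deacetylase Hdac1 rose by 1.10 (SE 0.10) and stood higher by both of its other probes (2.75 and 1.20), and Ctbp2, a corepressor recruited by many factors, rose by 1.06 (SE 0.14). Tle1, a corepressor of the Groucho family, fell by 0.27 (SE 0.09) by its brightest probe, and 2 of its 3 other probes were called higher (1.40 and 0.47). Of the 5 other Hes and Hey genes tested, only Hey1 passed. Hey1, a Notch target of heart chambers and vessels, fell by 0.67 (SE 0.09, adjusted p = 0.00024 by limma), with log2 intensities of 9.82, 9.70 and 9.50 in null cultures, against 10.57, 10.22 and 10.24 in heterozygous cultures. Targets of the pathway were thus called in both directions, Hes5 and Nrarp higher and Hey1 lower. This depends on the processing. On the authors' deposited values Hes5 and Nrarp lost their calls, while Hey1 stayed lower (-0.61, adjusted p = 0.0038 by limma). The ordinary t statistic did not call Hes5, Nrarp or Hey1 (adjusted p = 0.053 for Hey1). All 15 cardiac muscle markers fell, with a median log2 ratio of -3.29 and a summed normalized intensity of 26424 to 38178 in null cultures, against 263016 to 332326 in heterozygous cultures. The sum of replicate 1 lacks Tnnt2, left out as an outlier spot. The part of cardiac muscle cells in the ratio of Hey1 was not tested.

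Among the other inhibitors and genes of receptor turnover 4 of 10 rose and 4 fell. Dtx1, a Deltex ubiquitin ligase and itself a Notch target in lymphocytes, had log2 intensities of 10.04, 10.34 and 10.35 in null cultures, against 9.06, 8.77 and 8.59 in heterozygous cultures, and rose by 1.44 (SE 0.14, adjusted p = 4.2e-05 by limma). Dtx3l, a related ligase, rose by 1.15 (SE 0.09). Numb and Numbl, adaptor proteins that lower the receptor at the membrane, fell by 0.62 (SE 0.10) and 0.63 (SE 0.09), and Numbl lost its call with median centring and no loess (adjusted p = 0.058).

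**Figure D4:**
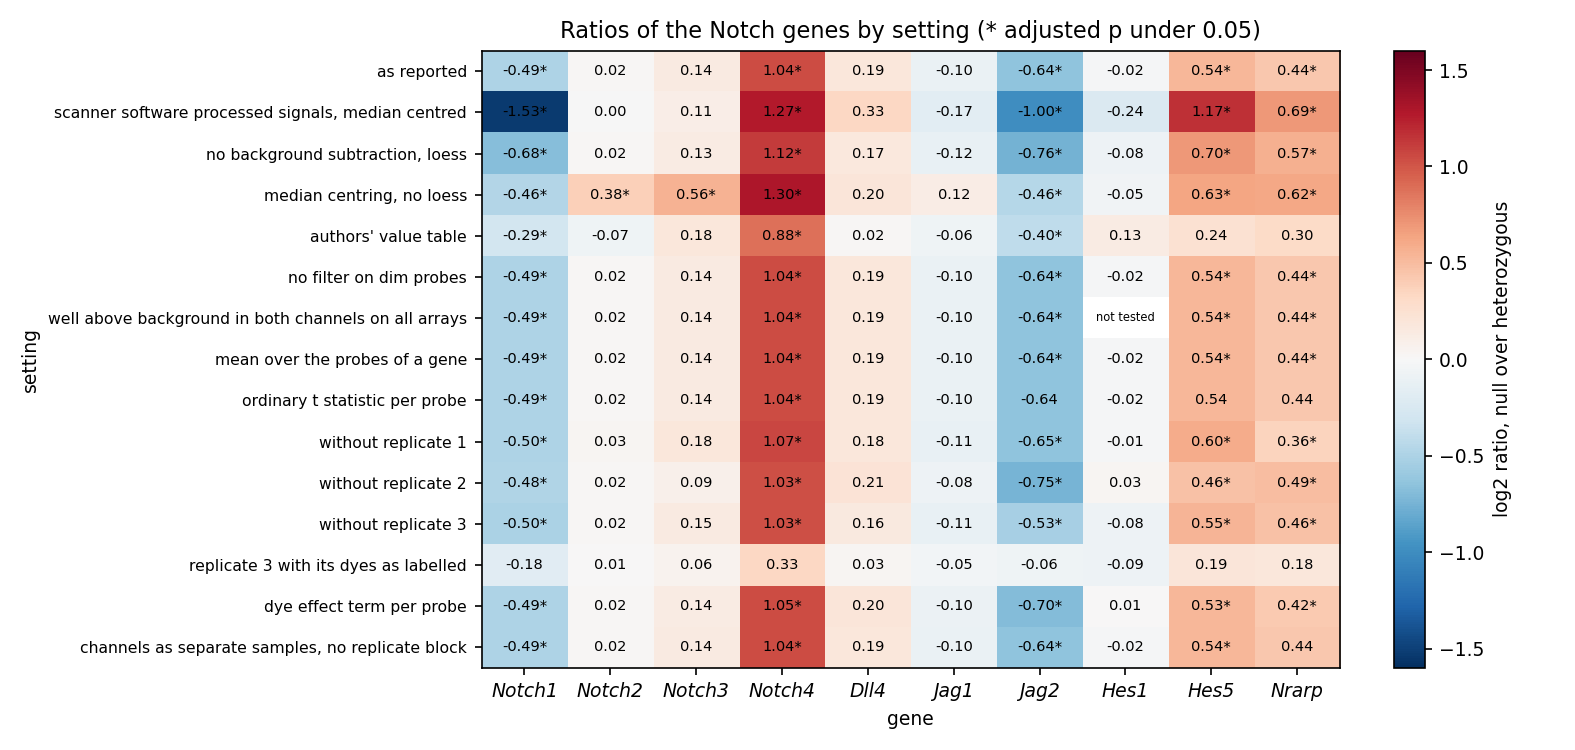
Log2 ratio of null over heterozygous cultures for the 10 genes (columns) under the reported and 14 other settings (rows), with colour and printed value for the ratio and an asterisk for an adjusted p under 0.05. Notch4 and Notch1 keep their call in all rows but that of replicate 3 as labelled, and Hes5 and Nrarp lose theirs in the authors' value table.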

How the data were processed

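Spot intensity values of both channels, with backgrounds and flags, were deposited by the authors. The software was Feature Extraction, version 11.5.1.1 per the file headers but 8.5.1.1 in the submitters' processing notes. The authors also deposited a table of values on a log2 scale, as read here from its slopes against the scanner ratios; its normalization and centring are unknown, with column medians of -0.10, -0.11 and 0.07. All 3 arrays came from 1 slide and 1 scan.

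With limma 3.58.1 in R 4.3.3, foreground medians were corrected by normexp (offset 50) and log2 ratios normalized by loess. Control and outlier spots were left out, and replicate 3 was turned. Kept were the 24575 of 39429 probes that stood well above background in all null or all heterozygous cultures. Ratios were tested against 0 by lmFit and eBayes with Benjamini-Hochberg adjustment over these probes, and a gene has its brightest probe. Intensities by culture are after Aquantile. SEs are moderated. Each of the 12 Notch probes is 1 spot per array. The offset shrinks ratios of dim probes. Accessions were matched to RefSeq (GRCm38.p6), naming 28025 probes. Promoter coordinates are GRCm38.p6, whereas the file headers give mm9 for the array, so no position was carried between them.

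The genes and the 17 lists were chosen with earlier results of these data known. One listed gene is not reported here. Besides the 10 genes, the text names per list the 2 called genes highest and the 2 lowest in ratio with equal sign on 3 arrays. The test was tried on simulated ratios.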

Additional observations from a re-analysis of the deposited data

How the results depend on the processing

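Of 139 values of the 10 genes under 14 other settings, 126 kept their side of the threshold, 11 lost it, 2 gained it (Notch2 and Notch3 with median centring) and 0 called ratios changed sign. For the other named genes, 246 of 308 values kept it. With replicate 3 as labelled, 0 genes of the array, 0 of the 10 and 0 of the other pathway genes were called by limma. In that setting 62 genes had an unadjusted p under 0.05, and Dll1 stood at -0.070 and Kat2a at -0.036. The ordinary t statistic, which shares no spread between probes, called 3995 genes, 2 of the 10 and 9 other pathway genes. On the values the authors deposited, 3 of the 10 were called. With median centring, where 74.0% of calls were higher against 50.1% as reported, Dlk1, Tle1 and Rbpj stood at 0.018, 0.073 and 0.38. With the mean over probes, Crebbp and Tle1 stood at 0.020 and 0.39. Leaving out each replicate in turn, 9836 to 11878 genes, 5 of the 10 and 31 to 35 other pathway genes were called. Pairing by array is part of the design, and without it, as separate samples with no replicate block, 8147 genes, 4 of the 10 and 29 other pathway genes were called. Other causes were not tested. Signal over background limits Notch1, Dll4 and Hes1, and Hes5 in heterozygous cultures.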
